A study of Mus musculus with 2 samples.

Results

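The genes examined here encode the chains of the collagens, the family of matrix proteins that gives cartilage its tensile frame. Every probe set annotated to a single gene whose symbol was Col, a number, the letter a and a number was taken, which gave 42 genes on 82 probe sets, of 18193 named genes and 45037 probe sets on the arrays. The genes were grouped by the assemblies that their proteins form, as 11 fibrillar, 9 FACIT (fibril-associated collagens with interrupted helices), 9 basement membrane, 8 network-forming and 4 transmembrane collagens, with *Col26a1* left unclassed. Types VII, XV and XVIII were placed with the basement membrane collagens, and the beaded filament collagen type VI with the network-forming ones.

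The signals came from 2 Affymetrix mouse whole-genome expression arrays of femoral cartilage from *Tric-b*-KO embryos at E17.5, on a background labelled C57BL/6J and 129Sv. One array measured a section rich in round chondrocytes, and the other a section of columnar and hypertrophic chondrocytes. Both specimens were labelled as knockouts of TRIC-B, a cation channel of the endoplasmic reticulum, and each RNA was mixed from 3 preparations, so the values describe zones of knockout cartilage and not the effect of the knockout. The sections were dissected and not sorted, and other cells of the epiphysis may be included. Each zone had 1 array, so no difference below has a replicate check, and no test was made.

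A collagen molecule consists of chains wound around each other along glycine-rich repeats, and cells assemble it in the endoplasmic reticulum before secretion. In hyaline cartilage the fibrils are built from type II collagen with types IX and XI, whereas skin, tendon, perichondrium and bone use types I, III and V. Type X collagen is made by hypertrophic chondrocytes and is the usual marker of that stage. Type IV collagen forms the sheet of basement membranes, which cartilage itself largely lacks, and type VI forms beaded filaments around cells.

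The difference between the zones is given as the log2 signal in the columnar/hypertrophic section minus the log2 signal in the round section, so that negative values are higher in the round section. Signals under a floor of 65.9, below which 40% of the signals lay, were treated as not measured. A gene that reached the floor in 1 array only was compared against it and gives a bound, written as "at least", and a gene under it in both was not compared. Where a gene had several probe sets, the brightest represented it. Signals of different probe sets share no scale, so genes are compared by their differences and not by their levels. The only spread to be had was that among a gene's own probe sets, whose log2 differences had a pooled SD of 0.34 over 5446 genes, a figure that holds no variation between animals.

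All 11 chondrocyte marker genes, *Acan*, *Sox9* and *Matn1* among them, lay above the floor in both arrays, with a median log2 difference of -0.01. They ranged from -1.74 for *Ucma* (23261 and 6943), the only 1 past 2-fold, to 0.67 for *Hapln1*. Of 8 compared prehypertrophic and hypertrophic markers, 7 were higher by 2-fold or more in the columnar/hypertrophic section, against 4.28% of all compared genes. *Mmp13*, a collagenase gene of late hypertrophic cells, was under the floor in both (13.3 and 63.4). *Tmem38b*, which encodes TRIC-B, spanned 69.4 to 323 over its probe sets in the round section, and 43.1 to 304 in the other. Where these 4 probe sets lie relative to the deletion is not known here, so they check nothing about the genotype.

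Collagen genes were mostly higher in the round specimen. Of the 42 genes, 38 were compared, and 16 of them (42.1%) were higher by 2-fold or more in the round section, where 6.25% of all 12761 compared genes were. A single gene, *Col10a1*, was higher by 2-fold or more in the columnar/hypertrophic section (2.63% of the collagen genes), where 4.28% of all genes were. The median log2 difference was -0.72 over the collagen genes and -0.04 over all compared genes. Of the 38 genes, 29 (76.3%) lay on the round side by any amount, against 53.2% of all genes. The genes that were not compared were *Col4a3*, *Col4a4*, *Col6a5* and *Col19a1*, whose probe sets were all under the floor in both arrays. By probe set, 28 of the 82 collagen probe sets passed 2-fold towards the round array and 1 towards the other. The 82 include probe sets under the floor in both arrays, and 60 reached it in the round array. Of all compared probe sets, those not under the floor in both arrays, 6.24% and 3.58% passed.

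**Figure D1:**
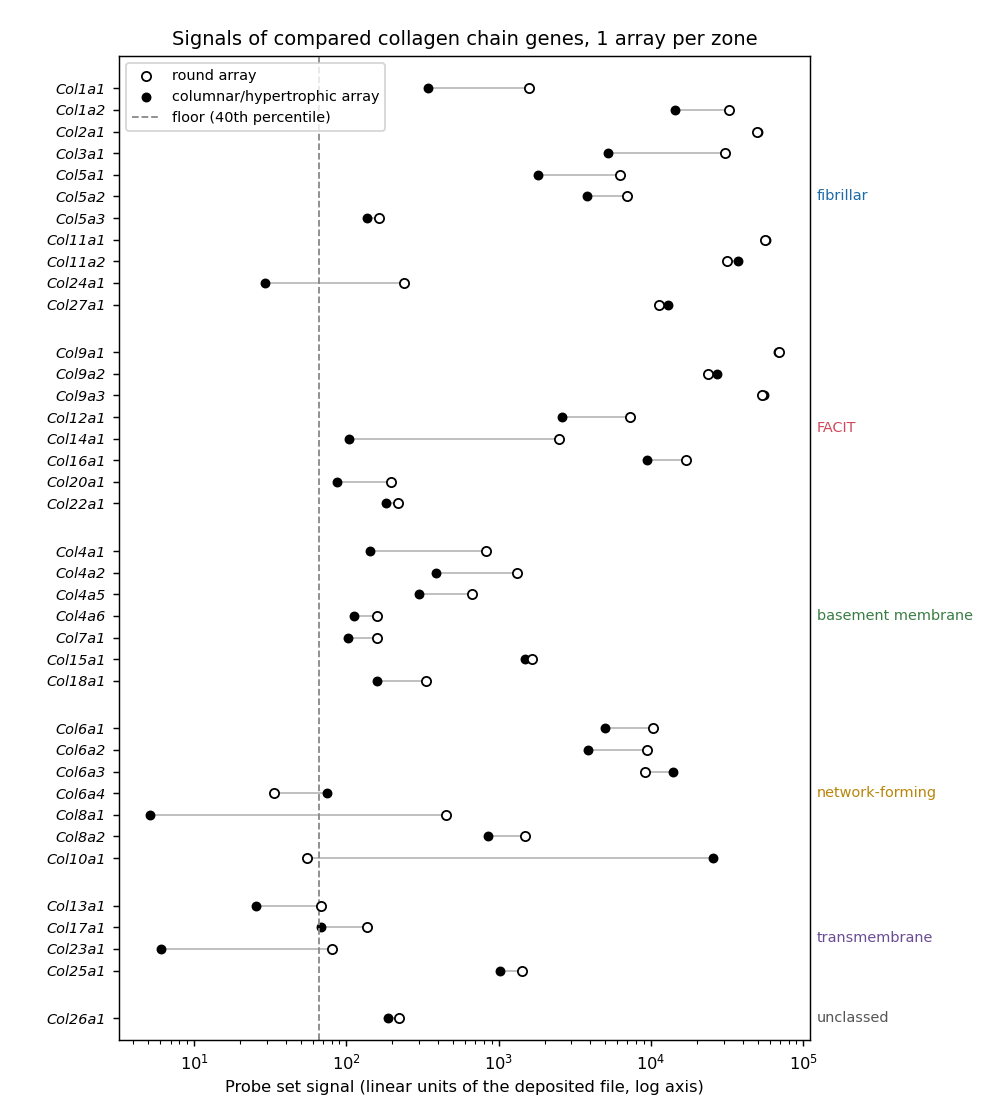
Signal of each of the 38 compared collagen genes (log axis, units of the deposited values) with open circles for the round section and filled circles for the columnar/hypertrophic one, grouped by class, with 1 array per zone and the floor of 65.9 dashed. *Col10a1* runs from 55.2 to 25421, the chains of types II, IX and XI nearly coincide, and most other open circles lie to the right of the filled ones.

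The class lines did not follow the split between the zones. In the chains of types II, IX and XI, which build the cartilage fibril, 0 of 6 genes differed by 2-fold, and their log2 differences ran from -0.02 to 0.23. Of the 31 other compared genes without *Col10a1*, 16 were higher by 2-fold or more in the round section and 0 in the columnar/hypertrophic section, with a median of -1.01. This division was drawn after the values were seen, except that types II, IX, X and XI had been set for naming, and it is a description. For these counts and those of each class below, 6.25% of all compared genes passed 2-fold towards the round section. Towards the columnar/hypertrophic section 4.28% did.

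*Col10a1* encodes the chain of type X collagen. Its signal was 25421 in the columnar/hypertrophic section against 55.2, under the floor, in round cartilage, which makes at least 386-fold (log2 8.59). With bounds taken at the floor, this was the largest difference towards the columnar/hypertrophic array among all 12761 compared genes. It rests on 1 probe set. The size of the bound depends on the floor and was 6.94 on the log2 scale with a higher floor at the 60th percentile.

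The chains of type VIII collagen, the closest relatives of type X and likewise formers of hexagonal networks, did not share that difference. The brightest probe set of *Col8a1* gave 453 in round and 5.13 in columnar/hypertrophic cartilage, lower there by at least 6.88-fold, while another of its probe sets gave 266 and 30.4, a bound of 4.03-fold. The remaining *Col8a1* probe set was under the floor in both. Its partner chain *Col8a2* had signals of 1495 and 845, a log2 difference of -0.82. Thus the 3 hexagonal network genes spanned the range from -2.78 to 8.59.

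The reference sequence before the start of these 3 genes is shown because they encode related proteins, while *Col10a1* differed between the zones in the direction opposite to the type VIII genes. It is taken from RefSeq (GRCm38.p6), covers the 100 bases before the annotated start, and is written 5′ to 3′ on the gene's strand. Capitals mark TATAAA in *Col10a1*, and GGGCGG or its reverse complement in *Col8a1* and *Col8a2*. The windows are chr10:34389881-34389980 (plus strand), chr16:57754738-57754837 (minus strand) and chr4:126286694-126286793 (plus strand), in that order.
Col10a1: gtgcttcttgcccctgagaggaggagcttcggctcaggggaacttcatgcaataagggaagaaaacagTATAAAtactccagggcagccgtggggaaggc
Col8a1: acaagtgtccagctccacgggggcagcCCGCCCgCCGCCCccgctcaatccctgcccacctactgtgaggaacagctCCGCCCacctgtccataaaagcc
Col8a2: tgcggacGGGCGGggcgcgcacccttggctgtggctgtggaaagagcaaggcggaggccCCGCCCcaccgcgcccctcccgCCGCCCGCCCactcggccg

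TATAAA, the core of the TATA box, begins 32 bases before the start of *Col10a1*. Reference windows of 250 bases before the start were found for 33 of the 42 collagen genes, 36 windows in all, and both strands were searched. Between 40 and 20 bases before the start, 1 of the 36 windows held TATAAA, that of *Col10a1*, as did 2.50% of all 32851 windows in the table. Over the whole 250 bases TATAAA was found in 5 collagen windows (13.9%, against 12.4% of all). GGGCGG, the GC box, occurred in 21 (58.3%, against 32.7%), with 3 matches in the printed stretch of *Col8a1* and 4 in that of *Col8a2*, of which the last 2 overlap. CCAAT was found in 13 (36.1%, against 33.8%). A match describes the letters only, and nothing was measured about factors that bind there.

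Among the fibrillar collagens, all 11 genes were compared, and 5 were higher by 2-fold or more in the round section, with a median log2 difference of -0.87. *Col2a1*, the main collagen gene of cartilage, gave 49311 in the round section and 50518 in the columnar/hypertrophic section. *Col11a1*, whose chain lies in the core of cartilage fibrils, had 56206 and 56627 on its brighter probe set and 36483 and 35349 on the other. *Col11a2* had 31713 and 37103, a log2 difference of 0.23. None of these came near 2-fold, and the signs of *Col2a1* and *Col11a1* turned with lowess centring.

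The genes of type I collagen, the fibril of bone, tendon and perichondrium, were lower in the columnar/hypertrophic section. *Col1a1* gave signals of 1583 and 342 (log2 -2.21), and its second probe set gave -2.14. *Col1a2*, the partner chain, gave 32412 and 14443 on its brightest probe set (log2 -1.17), 15943 and 4892 on another (-1.70) and 407 and 85.1 on the third (-2.26). All 5 probe sets of type I collagen therefore lay on the same side, and for *Col1a2* the difference was smaller on the brighter probe sets.

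*Col3a1*, whose product accompanies type I collagen in soft connective tissue, gave 30420 in round and 5232 in columnar/hypertrophic cartilage, 5.81-fold lower, and its dimmer probe set gave 7.34-fold. *Col5a1* and *Col5a2* encode type V collagen, which seeds type I fibrils. *Col5a1* had signals of 6293 and 1807 (log2 -1.80), with -1.29 and -1.20 on its other probe sets. *Col5a2* had 6979 and 3820 (-0.87), just short of 2-fold, and its second probe set gave -1.37. The minor chain gene *Col5a3* had 163 and 137 (-0.24).

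The remaining fibrillar genes went different ways. *Col24a1* gave 239 in the round section and 29.3, under the floor, in the other, at least 3.62-fold lower, on 1 probe set. *Col27a1*, a cartilage-expressed fibrillar gene, had 11201 and 12978 (log2 0.21), and 7533 and 11242 on its second probe set (0.58).

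Of the 8 compared FACIT genes, which encode collagens attached to the fibril surface, 3 were higher by 2-fold or more in the round section, and the median log2 difference was -0.55. The chains of type IX, bound to type II fibrils, showed little difference. *Col9a1* had signals of 68899 and 67986, the highest of each array, and 39887 and 40573 on its other probe set. *Col9a2* had 23667 and 27182 (log2 0.20). *Col9a3* had 53335 and 55408 on its brightest probe set, and its other probe sets gave log2 differences of -0.10 and 0.45. The sign of *Col9a1* turned with median centring and that of *Col9a3* with lowess centring.

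The genes of types XII and XIV, FACIT collagens found with type I fibrils, were lower in the columnar/hypertrophic section, as was *Col16a1* by less than 2-fold. *Col14a1* gave 2495 in round and 104 in columnar/hypertrophic cartilage, a 23.9-fold difference (log2 -4.58). With bounds taken at the floor, only 3 of all 12761 compared genes had a larger difference towards the round array. Bounds made up 1598 of the compared genes, and their true differences may be larger. The second *Col14a1* probe set gave 855 and 26.1, a bound of -3.70, and the third was under the floor in both. *Col12a1* had 7303 and 2607 (-1.49), with -1.43 on a second probe set and a further 2 under the floor. *Col16a1* had 16939 and 9435 (-0.84).

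Among the rarer FACIT genes, *Col20a1* had signals of 195 and 86.7 (-1.17), but its other compared probe sets gave -0.46 and 0.01, so its place among the genes at 2-fold depends on the probe set. *Col22a1*, a gene of tissue junctions, had 218 and 182 (-0.26).

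**Figure D2:**
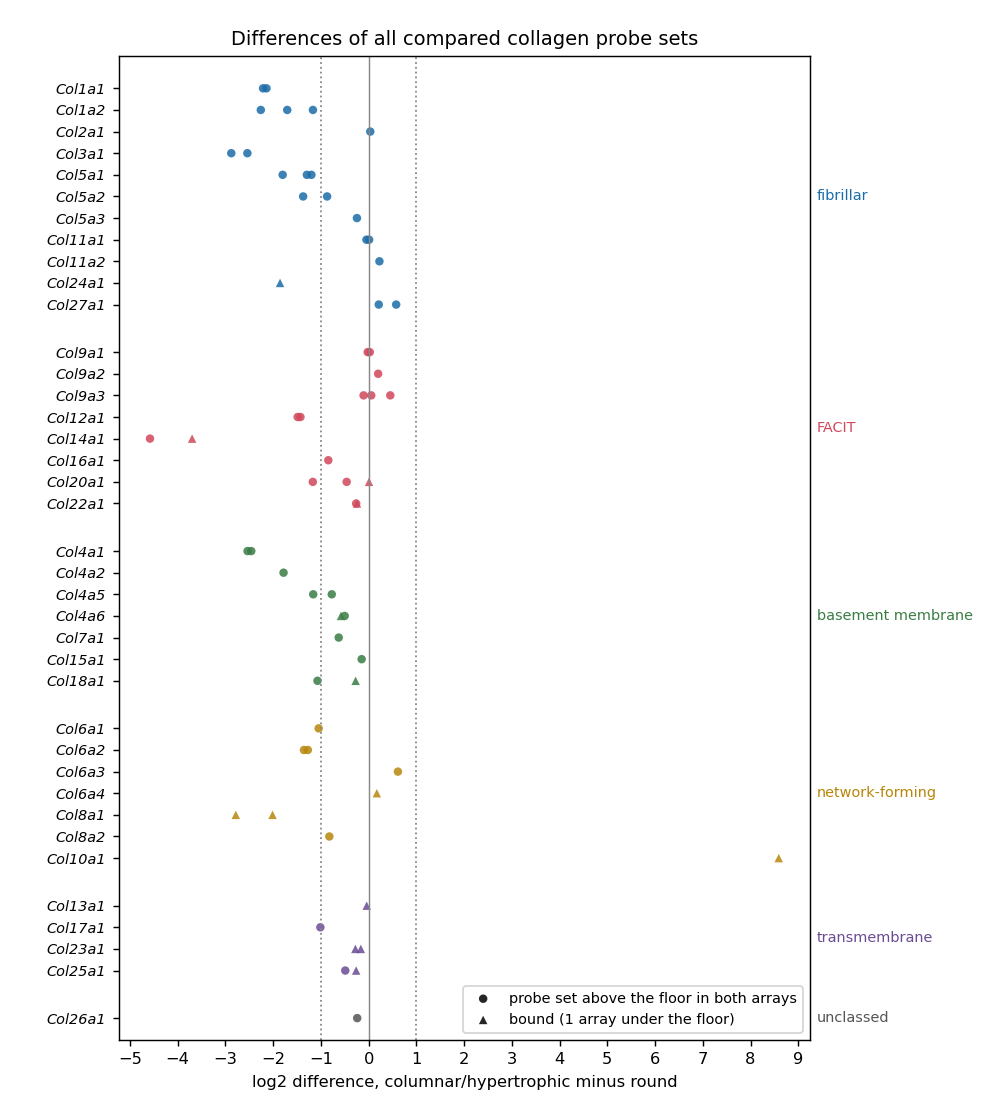
Log2 difference, columnar/hypertrophic minus round, for every compared collagen probe set, by gene and class (circles, above the floor in both arrays; triangles, bounds against the floor). Dotted lines mark 2-fold. Probe sets of *Col1a2* spread from -2.26 to -1.17 and those of *Col20a1* from -1.17 to 0.01, while *Col10a1* stands alone at 8.59.

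The basement membrane collagens were lower in the columnar/hypertrophic section in all 7 compared genes, 4 of them by at least 2-fold, with a median log2 difference of -1.07. *Col4a1* and *Col4a2* encode the chains of the widespread form of type IV collagen. *Col4a1* had signals of 829 and 143 (-2.54) and on its second probe set 454 and 82.6 (-2.46), and *Col4a2* had 1325 and 385 (-1.78). *Col4a5* had 669 and 299.6 (-1.16), with -0.77 on its second probe set, and *Col4a6* had 160 and 113 (-0.50). *Col4a3* and *Col4a4*, chains best known from kidney, were under the floor in both arrays.

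Outside type IV, *Col18a1*, the source of endostatin, had signals of 332 and 158 (-1.07), but a second probe set gave a bound of -0.27. The related *Col15a1* had 1648 and 1490 (-0.15), and *Col7a1*, the anchoring fibril gene of epithelia, 158 and 103 (-0.63).

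In type VI collagen the chains disagreed. *Col6a1* had signals of 10299 and 4988 (log2 -1.05) and *Col6a2* 9371 and 3877 (-1.27, with -1.35 on a second probe set). *Col6a3*, whose chain joins the other two in the same molecule, had 9137 and 13985, a log2 difference of 0.61 towards the columnar/hypertrophic array. *Col6a1* and *Col6a3* rest on 1 probe set each. *Col6a4* had 33.3, under the floor, and 74.3, just above it, and *Col6a5* was under the floor in both arrays.

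All 4 transmembrane collagen genes lay on the round side, although *Col13a1* changed sides with median centring (0.05), and most were close to the floor. Their median log2 difference was -0.38. *Col25a1*, the brightest of them by its own probe set, had signals of 1430.2 and 1019 (-0.49). *Col17a1*, a gene of epithelial hemidesmosomes, had 137 and 68.0 (-1.01), the latter just above the floor. *Col13a1* and *Col23a1* were above the floor in the round section only, with bounds of -0.04 and -0.28. The unclassed *Col26a1* had 221 and 187 (-0.24).

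Chains of one type, which need not all share a molecule, were then compared by their differences. By the brightest probe sets, the range between chains of one type was 0.22 for type IX and 0.22 for type XI, under the pooled SD of 0.34. Averaged over probe sets these ranges were 0.20 and 0.24, but the compared probe sets of *Col9a3* alone spanned 0.56. The range was 1.04 for type I, 1.56 for type V and 2.03 for type IV, the last between *Col4a1* and *Col4a6*. Within type IV, *Col4a1* and *Col4a2* differed by 0.75, and *Col4a5* and *Col4a6* by 0.66. For types VI and VIII a chain was measured against the floor, and the range was at least 1.89 and at least 1.96, respectively. The bound of *Col8a1* itself was -4.32 with a 20th percentile floor and -1.13 with a 60th percentile floor, so type VIII has no order among the others. The range for type I fell to 0.47 when the differences were averaged over all probe sets of a gene, so it rests on the brightest probe set of *Col1a2*.

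Several collagen genes neighbour each other in the genome. *Col6a1* and *Col6a2* are next to each other among protein-coding genes and differed from one another by 0.23 in their log2 differences. *Col4a1* and *Col4a2* start back to back, with reference windows that overlap by 78 bases, and differed by 0.75, and *Col4a5* and *Col4a6* differed by 0.66. *Col3a1* and *Col5a2* are also neighbours and differed by 1.67, both being lower in the columnar/hypertrophic section.

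The cartilage collagens are among the brightest features of the arrays, where a difference can be hard to see. Of the collagen genes, 7 had a probe set in the brightest 1% of signals in both arrays, *Col1a2* and the 6 genes of types II, IX and XI. Over all 178 genes with both signals in that range, 6 differed by at least 2-fold, and the median absolute log2 difference was 0.16, against 0.32 over all compared genes. *Col1a2* was one of these genes and still showed a 2.24-fold difference. Outside that range *Col9a3* offers 1 probe set, with signals of 128 and 175. Whether the signals were compressed was not tested.

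**Figure D3:**
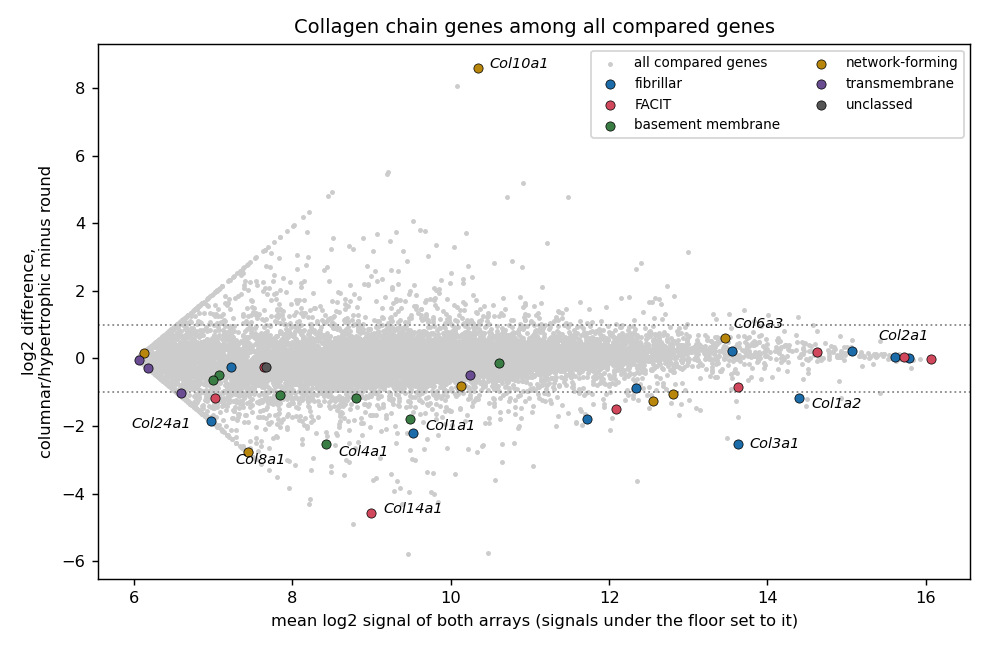
Log2 difference against mean log2 signal for all 12761 compared genes (grey) and the 38 compared collagen genes (coloured by class), with dotted lines at 2-fold. *Col10a1* is the highest point, *Col14a1* is among the lowest, and at the bright end on the right both the grey points and the chains of types II, IX and XI lie close to 0.

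Markers of other cells went in different directions by list. For the counts below, 53.2% of all compared genes lay on the round side. Of all compared genes, 6.25% passed 2-fold towards the round section and 4.28% towards the other. Of 11 compared genes of perichondrium, tendon and fibroblasts, none of them a collagen gene, 10 were higher in the round section, 5 by at least 2-fold, with a median log2 difference of -0.66. Among the 11, *Fndc1*, *Aspn*, *Dpt* and *Scx* give only bounds, and the median is the bound of *Aspn* (104 and 0.82). The signals of this list, those under the floor included, summed to 53427 for round and 28726 for columnar/hypertrophic cartilage, and without *Dcn* to 27458 and 23643. *Postn*, a periosteal matrix gene, had signals of 1977 and 186. *Dcn*, encoding decorin, had 25968 and 5083, and *Pdgfra*, a receptor of mesenchymal cells, 2763 and 741. The tendon regulator *Scx* had 79.2 and 6.03, a bound of log2 -0.26. *Tnmd* had 214 and 78.0, and *Kera*, *Thy1* and *Tnxb* were under the floor in both arrays. *Lum*, encoding lumican, had 21458 and 22176. As these are bulk specimens, fewer cells of a type and less RNA per cell cannot be told apart. The part of such cells in the differences of types I, III, V, XII and XIV was not tested.

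Vessels also carry type IV collagen. Of 8 compared endothelial markers, 6 were higher in the round section and 2 by at least 2-fold, against 53.2% and 6.25% of all compared genes. Among them *Esam*, *Pecam1* and *Emcn* give only bounds, of log2 -1.08, -0.57 and -0.04, and *Cdh5* a bound of 0.45 the other way. The signals of all 11 markers, those under the floor included, summed to 1228 and 748, or without *Eng* to 817 and 643. Such sums mix probe sets of different scales and are led by the brightest. Most lay near the floor, with *Pecam1* at 97.9 and 47.4 and *Cdh5* at 27.7 and 90.0, and *Tek*, *Tie1* and *Vwf* were under it in both. Only *Eng*, *Esam*, *Kdr*, *Egfl7*, *Pecam1*, *Emcn* and *Cldn5* reached the floor in the round section, up to 411. Of 7 pericyte and smooth muscle markers, *Pdgfrb* had 1522 and 575, *Rgs5* 150 and 3.28, and *Acta2* 219 and 1185, while *Cspg4* had 9897 and 11646 and the other 3 were under the floor. Their part in the differences of type IV collagen was not tested.

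Other markers gave fewer compared genes. Of 7 genes of osteoblasts and osteocytes 4 were compared and 1, *Ifitm5*, was higher by 2-fold or more in the columnar/hypertrophic section (119 and 290). *Dmp1* (3.17 and 127) and *Phex* (0.52 and 109) were under the floor in the round section. They give only bounds, of at least 1.93-fold and 1.65-fold towards the other section, while *Omd* lay on the round side (log2 -0.73). Of 6 genes of the articular and round zone, 5 were higher by 2-fold or more in the round section, led by *Prg4*, the lubricin gene, with signals of 5260.2 and 94.1. Of 6 compared skeletal muscle genes, 3 (*Tnnt3*, *Acta1* and *Actc1*) passed 2-fold towards the columnar/hypertrophic side, and the whole list summed to 458 and 1202. *Tnnt3* and *Actc1* were under the floor in the round section, with bounds of at least 6.20-fold and 2.57-fold. Of 3 compared myeloid genes, *Csf1r* and *Ctsk* were within 2-fold. *Cd68* (102 and 63.4) and the single compared erythroid gene, *Alas2* (83.8 and 37.7), give only bounds, of at least 1.54-fold and 1.27-fold. The part of these cells in the collagen differences was not tested.

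Genes of the machinery that builds collagen were examined step by step. Over all compared genes, 53.2% lay on the round side. The shares that passed 2-fold were 6.25% towards the round section and 4.28% towards the other. Of 17 genes for folding and modification, all were above the floor in both arrays, 14 were higher in the columnar/hypertrophic section, 1 of them by 2-fold, with a median log2 difference of 0.14 that became -0.02 with lowess centring. *Serpinh1*, encoding the collagen chaperone HSP47, had signals of 37294 and 42080, and *P4hb*, encoding the shared subunit of prolyl 4-hydroxylase, 39628 and 40122. *P3h2*, which encodes a prolyl 3-hydroxylase known to act on type IV collagen, had 749.6 and 4889.8, a 6.52-fold difference in the direction opposite to the type IV chains. *Colgalt1* and *Colgalt2*, encoding galactosyltransferases of collagen hydroxylysine, had log2 differences of 0.57 and 0.49. Of the 8 compared genes for export of procollagen from the endoplasmic reticulum, 0 differed by 2-fold and 7 lay on the columnar/hypertrophic side. *Sec13* stood at 0.50, *Creb3l2* at -0.36 and *Sec23a* at 0.33.

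Of the 4 compared genes for cleavage of propeptides, 3 lay on the round side and 0 differed by 2-fold, with a median log2 difference of -0.41. The enhancer genes *Pcolce* and *Pcolce2* stood on opposite sides, with log2 differences of -0.61 and 0.70, and *Bmp1*, encoding the C-propeptide protease, was at -0.60. Crosslinking genes differed most. *Loxl1* had signals of 707 and 86.9 (-3.02), *Loxl4* 180 and 3013 (4.07), and *Tgm2*, a transglutaminase gene, 209 and 2913 (3.80), whereas *Lox* was at 0.21 and *Loxl3* at -0.30. Of 8 compared collagen receptor genes, *Itga1*, encoding the α1 integrin subunit, was higher by 2-fold or more in the columnar/hypertrophic section (243 and 1187, log2 2.29) and 5 others were within 2-fold. *Gp6* (72.3 and 42.8) and *Lair1* (72.7 and 15.6) were under the floor there and give only bounds, both of at least 1.10-fold. *Ddr2*, a receptor kinase for fibrillar collagens, was at -0.68 and *Mrc2*, an endocytic collagen receptor, at -0.71.

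**Figure D4:**
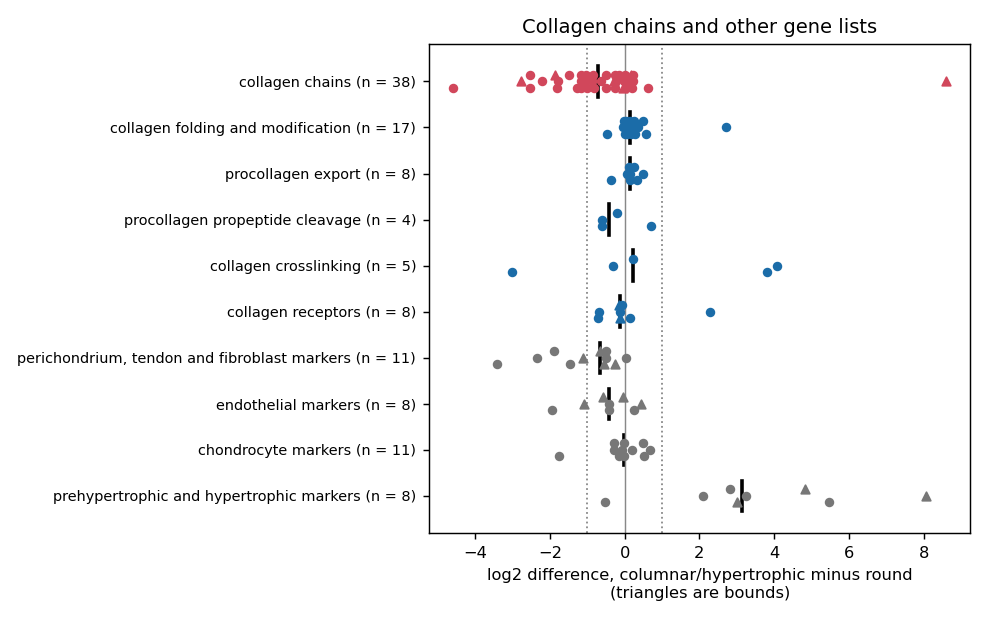
Log2 difference of each compared gene, columnar/hypertrophic minus round, for collagen chains (red), lists of collagen processing and receptor genes (blue) and marker lists (grey), with the median of each list as a black bar and bounds as triangles. The collagen chains have their median at -0.72, whereas folding and export genes cluster near 0 with medians of 0.14 each, that of folding being -0.02 with lowess centring.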

How the data were processed

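Total RNA of 2 specimens of *Tric-b*-KO femoral cartilage had been hybridized to 1 Affymetrix mouse whole-genome array each. The deposited values are intensities per probe set, linear and not log-transformed, and were summarised according to the submitters' processing notes with MAS5 (no version given). The methods name robust multiarray analysis for heatmaps, which gives log values and was not used here.

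Signals were used as deposited, since their means trimmed by 2% at each end were 497 and 496. Of 45037 probe sets, 34945 were annotated to 1 gene, 932 to several and 9160 had no symbol here. No probe set with several symbols held a collagen chain. Symbols checked through Entrez identifiers against the RefSeq table (GRCm38.p6) left all 42 collagen genes unchanged. The other 2 collagen chain genes of that table, and some genes of the marker lists, were not analysed here. Signals under the 40th percentile were set to it before log2. The brightest probe set, by mean log2 signal, stood for its gene. A test was not possible with 1 array per zone, and a 2-fold rule was used instead.

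The members and lists were chosen with earlier results of these data known. Named were every collagen gene that differed by 2-fold, chains of the same types, types II, IX, X and XI, and up to 3 leading genes of other lists, with further examples chosen after their values were seen. Protein sequences were not analysed here. Alternatives were other scalings, floors, probe set rules, a 3-fold rule and class memberships. The range within a collagen type was recomputed under settings chosen after seeing the data. Steps were tested on simulated data with 200 changed probe sets. The software was pandas 2.3.3 and numpy 2.4.6 under Python 3.11.15, with lowess from statsmodels 0.14.6 and plots from matplotlib 3.10.9. The number of arrays limits the precision.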

Additional observations from a re-analysis of the deposited data

How the results depend on the processing

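No paired analysis was possible because 1 array was made per zone and the design allows no test. Between settings, 119 values of the main comparisons stayed within the tolerance (the pooled SD of 0.34, or 1.5 times for counts) and 21 moved. The tolerance is wide for medians and holds no variation between animals. Of the values of single collagen genes, 294 stayed, 33 moved and 1 changed its sign, that of *Col20a1* (0.0088 on its dimmest compared probe set). Some small differences, such as those of *Col2a1* and *Col9a1*, changed sign with the scaling without counting as moved.

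The count of collagen genes past 2-fold on the round side was 13 to 15 of 37 or 38 under the 3 other scalings. It was 18 of 42 compared genes without a floor and 18 of 40 with a 20th percentile floor. A 60th percentile floor gave 12 of 30, and each other probe set rule gave 14, of 33 or 38. Of all compared genes, 4.98% to 5.23% passed towards the round section under the scalings. The share was 13.9% without a floor, 9.32% with a 20th percentile floor and 4.19% with a 60th percentile floor. The rise to 18 thus came with a larger share of all genes. A 3-fold rule gave 8, and 28 probe sets were counted in place of genes. *Col17a1* and *Col18a1* lost their place under all 3 other scalings, and *Col20a1* under quantile and lowess scaling. *Col4a5*, *Col18a1* and *Col20a1* lost it on mean or dimmest probe sets. *Col6a1* lost its place under median centring, *Col17a1*, *Col18a1*, *Col20a1* and *Col24a1* with a 60th percentile floor, and *Col6a2* and *Col17a1* on specific probe sets. *Col16a1* was gained under quantile and lowess scaling, *Col5a2* under lowess scaling and on mean or dimmest probe sets, and *Col13a1* and *Col23a1* without a floor or with a 20th percentile floor. On the columnar/hypertrophic side 2 of 40 compared genes passed with a 20th percentile floor (adding *Col6a4*), and 3 of 42 with no floor (adding *Col6a5*). Over all genes the shares on that side were 6.46% and 10.7%, respectively.

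The transmembrane median was -1.02 without a floor or with one at the 20th percentile. A floor at the 60th percentile gave a FACIT median of -0.074, which was -0.12 on the dimmest probe sets. The network-forming median was -0.10 without a floor and -0.33 on specific probe sets only, and the fibrillar median -1.29 on specific probe sets. The basement membrane median was -0.63 with no floor and on the dimmest probe sets, -0.67 on mean probe sets and -1.47 for type IV alone. The receptor list gave -0.53 without a floor or with one at the 20th percentile, and the crosslinking list 0.59 on mean probe sets. Averaged over probe sets, the range between chains was 0.47 for type I, 1.19 for type V and 1.57 for type VIII. The cause was not tested.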
